A study of Homo sapiens with 6 samples.

Results

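The Hippo pathway and its transcriptional output were examined through 35 genes, chosen by symbol from the 60605 genes of a raw count table. Each of the 35 matched 1 human Ensembl gene identifier. The pathway core held 14 of them and the target genes of YAP1 the other 21. Polyadenylated RNA was sequenced from HuCCT-1, an established human cell line from a bile duct cancer (cholangiocarcinoma). In the JNJ-64619178 group, 3 libraries were made from cells exposed to 6 nM of this inhibitor of the arginine methyltransferase PRMT5 for 4 days. In the DMSO group, 3 libraries were made from cells given an equal volume of the solvent DMSO over the same time. Both groups were grown in DMEM-F12 with serum, and the single comparison asked how PRMT5 inhibition altered gene expression in this cancer line.

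In the Hippo pathway, the kinases STK3 and STK4, with the adaptor SAV1, activate the kinases LATS1 and LATS2, which work with the adaptor MOB1A. Active LATS kinases phosphorylate the coactivators YAP1 and WWTR1 (the protein TAZ), which are then held in the cytoplasm or degraded. Unphosphorylated YAP1 and WWTR1 enter the nucleus, bind the TEAD factors and turn on genes of adhesion, matrix and growth, among them CCN1, CCN2 and ANKRD1. In mice the pathway restrains growth of the liver and bile ducts. Counts of RNA measure neither the phosphorylation nor the location of YAP1.

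Total gene counts ranged from 23931991 to 28224911 in the JNJ-64619178 libraries and from 28133746 to 30691914 in the DMSO libraries. Whether the replicates were separate cultures is not stated in the labels, and p-values here reflect only the spread among these libraries, which may be technical. PRMT5 itself did not pass the test (76.8 ± 1.18 CPM with JNJ-64619178 and 73.1 ± 1.09 CPM with DMSO, SD, n = 3 each). Of 8 markers of biliary epithelium all 8 passed the count filter, with summed levels of 4571 to 4838 CPM with JNJ-64619178 and 5645 to 5919 CPM with DMSO. KRT7, KRT8, KRT18 and KRT19 were lower and SOX9 was higher with the inhibitor. The sums were at most 1.54 CPM with JNJ-64619178 and 1.09 CPM with DMSO for 5 endothelial markers, 1.29 and 0.739 CPM for 6 hepatocyte markers, and 2.20 and 1.70 CPM for 6 leukocyte markers. Of 7 fibroblast markers COL1A1 alone was above 1 CPM, and it was higher with JNJ-64619178 (61.0 CPM, against 35.5 CPM with DMSO).

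Levels are CPM, counts relative to library sizes scaled by TMM, as mean ± SD over 3 libraries of each group, and fold changes are JNJ-64619178 over DMSO. A gene was called when the edgeR quasi-likelihood test, fitted on 17371 genes, gave a Benjamini-Hochberg adjusted p under 0.05. By this rule 37.1% of all genes tested were called, 20.0% higher and 17.1% lower with the inhibitor. Of the 35 members 34 passed the filter on low counts. Among these, 6 were higher, 14 were lower and 14 were not called. The target genes gave 11 of the 14 decreases. In the core, 3 of 14 genes rose and 3 fell, with a median log2 fold change of -0.03. Among the 20 target genes tested, 3 rose and 11 fell, with a median of -0.21, beside a median of 0.001 over all genes tested. At least 1.5-fold change among called genes was seen for 3 of the 34 members (TEAD2, AMOT and ANKRD1), beside 10.3% of all genes tested. In bulk RNA, fewer cells expressing a gene and less RNA per cell cannot be told apart.

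**Figure D1:**
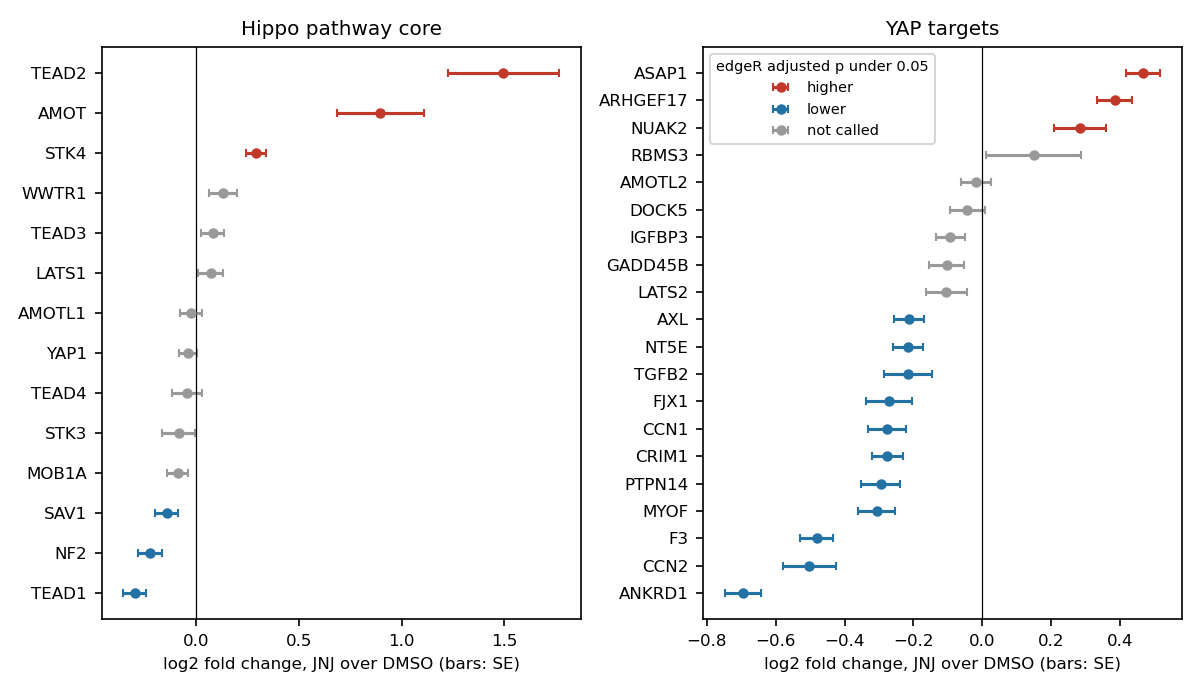
Log2 fold change of each tested member, JNJ-64619178 over DMSO, with its standard error as a bar, for 14 core genes on the left and 20 target genes on the right. Red marks genes called higher, blue genes called lower and grey genes not called. TEAD2 and AMOT stand furthest right in the core, and ANKRD1 stands furthest left among the targets.

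YAP1 and WWTR1, the coactivators through which the pathway acts, did not pass the test. YAP1 had 145, 139 and 136 CPM in the JNJ-64619178 libraries, against 142, 144 and 145 CPM in the DMSO libraries. Its log2 fold change was -0.04 (SE 0.04, edgeR adjusted p = 0.532), and the groups overlapped. WWTR1 had 29.2, 27.2 and 27.9 CPM with JNJ-64619178, against 23.1, 26.7 and 27.3 CPM with DMSO. The lowest inhibitor library of WWTR1 lay just below the highest DMSO library, and its log2 fold change was 0.13 (SE 0.07, edgeR adjusted p = 0.149). Per kilobase of exon, YAP1 made up 86.9% ± 0.26 of the summed level of both genes with JNJ-64619178 and 88.2% ± 0.83 with DMSO. YAP1 lies on chromosome 11 at 102110461 to 102233423 (GENCODE release 29, GRCh38).

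The TEAD factors, which carry YAP1 and WWTR1 to DNA, went in different directions. TEAD1 had 111, 91.8 and 106 CPM in the JNJ-64619178 libraries, against 126, 129 and 124 CPM in the DMSO libraries. All inhibitor libraries of TEAD1 lay below all DMSO libraries, and it fell by 0.30 on the log2 scale (SE 0.06, edgeR adjusted p = 0.000142). TEAD2 rose 2.82-fold, the largest change of any member, from very few reads. It had 49, 56 and 49 counts, or 1.99, 1.96 and 2.08 CPM, with JNJ-64619178, against 27, 14 and 22 counts, or 0.905, 0.507 and 0.707 CPM, with DMSO. The inhibitor libraries were all above the DMSO libraries (edgeR adjusted p = 9.85e-05). TEAD3 (log2 fold change 0.08) and TEAD4 (-0.04) were not called, and their groups overlapped. Per kilobase of exon, TEAD1 accounted for 30.0% ± 1.63 of the summed TEAD level with JNJ-64619178 and 35.3% ± 0.69 with DMSO. TEAD3 took 35.8% to 40.4% in the JNJ-64619178 libraries and 33.4% to 36.2% in the DMSO libraries, and TEAD4 took 29.4% ± 1.72 with JNJ-64619178 beside 28.4% to 30.3% in the DMSO libraries. TEAD2 took 2.02% ± 0.08 with JNJ-64619178 and 0.68% ± 0.18 with DMSO. The summed TEAD level was 33.3 ± 1.46 CPM per kilobase with JNJ-64619178 and 34.8 ± 0.77 CPM per kilobase with DMSO, and the groups overlapped (31.8 to 34.7 with JNJ-64619178, against 34.0 to 35.5 with DMSO).

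Among the kinases, STK4 (the protein MST1) rose and STK3 (MST2) was not called. STK4 had 126, 114 and 125 CPM in the JNJ-64619178 libraries, against 101, 97.7 and 99.5 CPM in the DMSO libraries. The groups did not overlap, and the log2 fold change was 0.29 (SE 0.05, edgeR adjusted p = 3.66e-05). STK3 had 18.1, 16.6 and 17.7 CPM with JNJ-64619178, against 20.4, 17.1 and 18.0 CPM with DMSO (log2 fold change -0.09, SE 0.08). Per kilobase of exon, STK4 made up 90.6% ± 0.11 of the summed level of this kinase pair with JNJ-64619178 and 88.2% ± 0.81 with DMSO. LATS1, the kinase that phosphorylates YAP1, had 30.9, 29.9 and 33.7 CPM with JNJ-64619178, against 30.1, 29.6 and 30.1 CPM with DMSO, and was not called (log2 fold change 0.07, SE 0.06).

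The adaptors moved little. SAV1, which joins STK3 and STK4 to LATS1, had 36.6, 37.7 and 36.0 CPM in the JNJ-64619178 libraries, against 42.1, 39.7 and 40.1 CPM in the DMSO libraries. The inhibitor libraries all lay below, but SAV1 sat close to the threshold (log2 fold change -0.14, SE 0.06, edgeR adjusted p = 0.0456). It lost its call in 8 of 13 alternative fits, with adjusted p up to 0.151 without DMSO replicate 1, and also without DMSO replicate 2 (0.0637) and JNJ replicates 1 (0.0813) and 3 (0.148). The exons of SAV1 share 840 bases, or 14.9% of its exonic length, with ATL1 on the other strand. ATL1 averaged 107 counts a library and SAV1 averaged 1072, and their reads cannot be told apart if strand was not used in counting. MOB1A, the adaptor of the LATS kinases, was not called (log2 fold change -0.09, SE 0.05), and its groups overlapped.

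Of the upstream members, NF2 fell, AMOT rose and AMOTL1 was not called. NF2, the tumour suppressor merlin that brings LATS kinases to the membrane, had 34.7, 35.8 and 32.3 CPM in the JNJ-64619178 libraries, against 39.6, 41.6 and 39.1 CPM in the DMSO libraries. The groups did not overlap, and NF2 fell by 0.22 on the log2 scale (SE 0.06, edgeR adjusted p = 0.00375). AMOT and AMOTL1 encode angiomotins, scaffolds that bind YAP1 and hold it outside the nucleus. AMOT had 4.39, 2.90 and 2.80 CPM with JNJ-64619178, against 1.54, 1.63 and 2.22 CPM with DMSO. AMOT was low in every library, and JNJ replicate 1 stood above the other inhibitor libraries. Its log2 fold change was 0.90 (SE 0.21, edgeR adjusted p = 0.00172). AMOTL1 had 79.8, 69.2 and 74.4 CPM with JNJ-64619178, against 73.0, 75.2 and 78.8 CPM with DMSO. Per kilobase of exon, AMOT was 0.81% ± 0.20 of the summed level of AMOT, AMOTL1 and AMOTL2 with JNJ-64619178 and 0.43% ± 0.09 with DMSO, while AMOTL2 was 83.9% ± 0.97 and 84.2% ± 0.84.

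**Figure D2:**
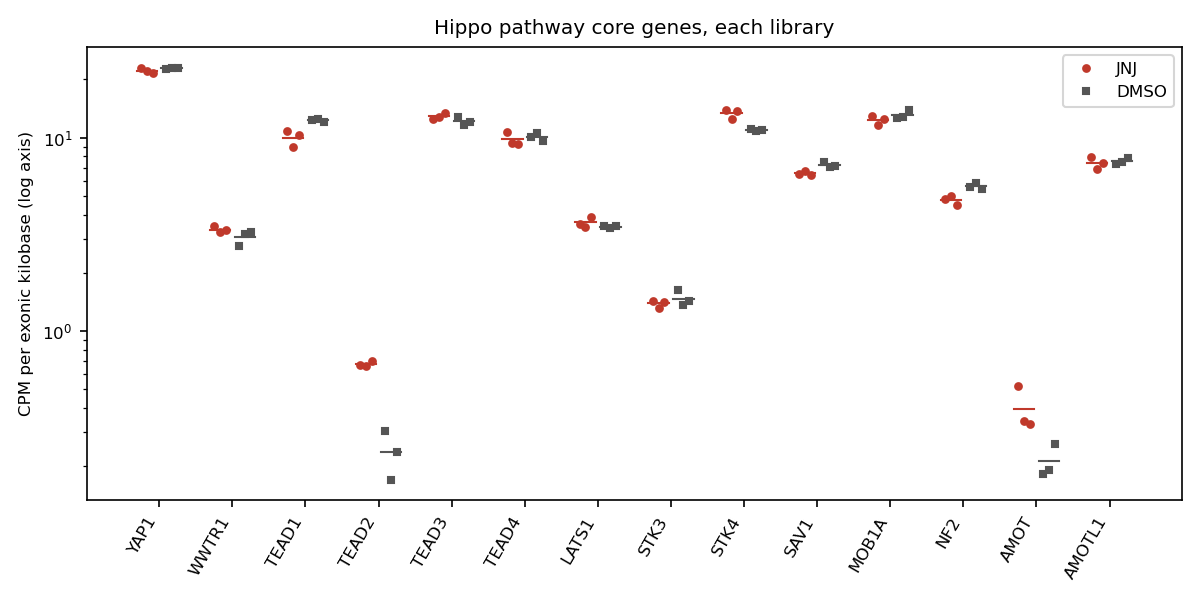
Level of the 14 core genes in each library, in CPM per kilobase of exon on a log axis, with JNJ-64619178 libraries as red circles, DMSO libraries as grey squares and group means as lines. YAP1 is the highest at 22.2 CPM per kilobase with JNJ-64619178 and 22.8 with DMSO, and TEAD2 and AMOT are the lowest in both groups.

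Among the target genes, the largest decreases were in ANKRD1, CCN2 and F3. ANKRD1, a nuclear cofactor with ankyrin repeats, had 65.3, 67.7 and 67.0 CPM in the JNJ-64619178 libraries, against 114, 111 and 99.7 CPM in the DMSO libraries. The groups lay far apart, and ANKRD1 fell by 0.70 on the log2 scale (SE 0.05, edgeR adjusted p = 1.6e-10). CCN2, a secreted matricellular protein, had 20.7, 21.4 and 22.5 CPM with JNJ-64619178, against 34.5, 26.8 and 30.1 CPM with DMSO. All inhibitor libraries lay below, while the DMSO libraries of CCN2 spread more widely (log2 fold change -0.50, SE 0.08, edgeR adjusted p = 1.6e-05). F3, which encodes tissue factor, the trigger of blood coagulation, had 2725, 2811 and 2917 CPM with JNJ-64619178, against 3856, 3999 and 3937 CPM with DMSO. It was the most abundant member, and it fell by 0.48 on the log2 scale (SE 0.05, edgeR adjusted p = 2.23e-08).

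The promoters of these genes are shown for their matches to the motif that TEAD factors bind, GGAATG, read on both strands as GGAATG or CATTCC. The 250 bases before the RefSeq start (GRCh38.p14) were searched. For NUAK2, a target that rose, the window is shown because it too holds the motif, and it was chosen after its values were seen. Capitals mark matches to GGAATG or CATTCC and to TGANTCA, a motif of AP-1, which works beside TEAD factors at many YAP1 targets. TGANTCA reads the same on both strands, and no 2 matches overlap in the windows shown. The CCN2 window is chr6:131951373-131951622, minus strand, the ANKRD1 window is chr10:90921088-90921337, minus strand, the F3 window is chr1:94541760-94542009, minus strand, and the NUAK2 window is chr1:205321746-205321995, minus strand.
CCN2: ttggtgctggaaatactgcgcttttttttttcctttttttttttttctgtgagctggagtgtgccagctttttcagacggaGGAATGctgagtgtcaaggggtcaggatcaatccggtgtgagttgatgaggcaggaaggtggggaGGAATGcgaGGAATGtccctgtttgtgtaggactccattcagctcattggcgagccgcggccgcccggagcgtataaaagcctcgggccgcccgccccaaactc
ANKRD1: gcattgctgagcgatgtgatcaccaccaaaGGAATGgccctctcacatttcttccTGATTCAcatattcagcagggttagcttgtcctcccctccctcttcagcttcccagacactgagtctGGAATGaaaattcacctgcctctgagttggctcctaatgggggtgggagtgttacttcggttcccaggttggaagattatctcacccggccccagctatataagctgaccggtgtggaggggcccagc
F3: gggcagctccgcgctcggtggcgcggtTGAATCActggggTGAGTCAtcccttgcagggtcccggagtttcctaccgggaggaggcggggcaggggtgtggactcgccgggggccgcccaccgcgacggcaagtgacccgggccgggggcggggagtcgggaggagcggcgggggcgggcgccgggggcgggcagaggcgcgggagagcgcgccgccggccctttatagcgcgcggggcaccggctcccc
NUAK2: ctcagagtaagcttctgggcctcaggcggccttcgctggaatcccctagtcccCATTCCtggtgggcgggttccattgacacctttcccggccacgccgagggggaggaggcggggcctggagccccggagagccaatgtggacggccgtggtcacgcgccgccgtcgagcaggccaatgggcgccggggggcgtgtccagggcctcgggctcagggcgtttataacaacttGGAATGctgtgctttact

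CCN2 held GGAATG beginning at bases -169, -104 and -95 from the start, and ANKRD1 held it at -220 and -128, with TGANTCA at -195. F3 held TGANTCA at -223 and -210 and no GGAATG or CATTCC in this window. NUAK2 held CATTCC at -197 and GGAATG at -18. RefSeq windows were matched for 27 members, 34 windows in all since some genes have more than 1 start. The TEAD letters were found in 8 of 18 target windows and 1 of 16 core windows, beside 11.9% of 35116 windows over all genes. These target windows include those of FOXF2, which was not tested, AMOTL2, which was not called, and NUAK2, which rose. Because the targets were listed as genes of YAP1, which acts through TEAD factors, their share says nothing about the inhibitor. TGANTCA was in 2 of 18 target windows and 1 of 16 core windows, beside 6.57% of all windows. The CArG box of SRF was in 0 of 34 member windows, beside 1.16% of all windows. With so rare a motif, 34 windows are too few for that 0 to say anything about SRF. CCN1 was among the members without a window. A match describes the letters of the window and not a bound site.

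CCN1, the close relative of CCN2 and also a secreted matricellular protein, was the second most abundant member per kilobase. It had 718, 825 and 861 CPM in the JNJ-64619178 libraries, against 998, 976 and 937 CPM in the DMSO libraries. JNJ replicate 1 was the lowest, the groups did not overlap, and CCN1 fell by 0.28 on the log2 scale (SE 0.05, edgeR adjusted p = 0.000291). MYOF, a membrane repair protein, had 296, 247 and 279 CPM with JNJ-64619178, against 326, 340 and 350 CPM with DMSO. PTPN14, a phosphatase that binds YAP1 and restrains it, had 151, 123 and 140 CPM with JNJ-64619178, against 163, 167 and 176 CPM with DMSO. In both genes JNJ replicate 2 was the lowest library and the groups did not overlap. MYOF fell by 0.31 (edgeR adjusted p = 7.47e-05) and PTPN14 by 0.30 (edgeR adjusted p = 0.000208) on the log2 scale.

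Decreases were also called in CRIM1, AXL, NT5E, FJX1 and TGFB2. CRIM1, a transmembrane protein that binds bone morphogenetic proteins, had 172, 162 and 169 CPM in the JNJ-64619178 libraries, against 207, 204 and 197 CPM in the DMSO libraries (log2 fold change -0.28, SE 0.04). AXL, a receptor tyrosine kinase, had 327, 321 and 335 CPM with JNJ-64619178, against 378, 388 and 373 CPM with DMSO (-0.21, SE 0.04). NT5E, the surface enzyme that makes adenosine from AMP, had 294, 283 and 294 CPM with JNJ-64619178, against 332, 337 and 343 CPM with DMSO (-0.22, SE 0.04). In each of these 3 genes the inhibitor libraries all lay below the DMSO libraries, with edgeR adjusted p between 2.62e-05 and 0.00036. FJX1, a secreted protein related to fly four-jointed, had 27.2, 27.4 and 24.2 CPM with JNJ-64619178, against 33.4, 29.9 and 31.9 CPM with DMSO (-0.27, edgeR adjusted p = 0.00231). TGFB2, a ligand of the TGF-beta receptors, had 92.3, 73.1 and 87.8 CPM with JNJ-64619178, against 87.8, 100.4 and 105 CPM with DMSO. The exons of TGFB2 share 1371 bases, or 26.6% of its exonic length, with TGFB2-OT1 on the same strand, which averaged 0 counts. Strand cannot separate reads in those bases. TGFB2 was the called decrease whose groups overlapped (-0.22, edgeR adjusted p = 0.0164). It was not called without JNJ replicate 2 (log2 fold change -0.12, adjusted p = 0.126), without DMSO replicate 2 (0.0581) or 3 (0.0933), or by DESeq2 (0.163).

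The 3 targets that rose were ASAP1, ARHGEF17 and NUAK2. ASAP1, an activator of GTP hydrolysis by Arf GTPases, had 218, 191 and 218 CPM in the JNJ-64619178 libraries, against 149, 153 and 151 CPM in the DMSO libraries. The groups did not overlap (log2 fold change 0.47, SE 0.05, edgeR adjusted p = 6.54e-08). ARHGEF17, a guanine nucleotide exchange factor, had 125, 110 and 119 CPM with JNJ-64619178, against 86.7, 91.8 and 92.5 CPM with DMSO (0.38, SE 0.05, edgeR adjusted p = 1.62e-06). NUAK2, a kinase of the AMPK family that acts on actomyosin, had 29.7, 33.6 and 35.1 CPM with JNJ-64619178, against 30.0, 26.4 and 24.5 CPM with DMSO. JNJ replicate 1 lay just under DMSO replicate 1, so the groups of NUAK2 overlapped (0.28, SE 0.07, edgeR adjusted p = 0.00411), and without DMSO replicate 3 it was not called (0.21, adjusted p = 0.0537).

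**Figure D3:**
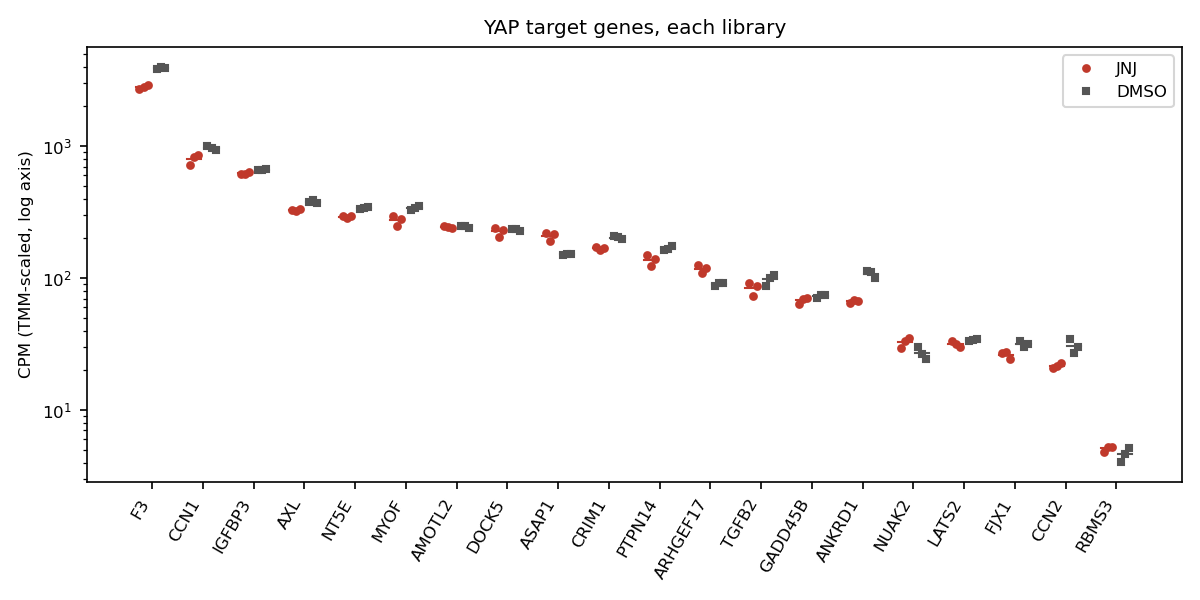
Level of the 20 tested target genes in each library, in CPM on a log axis, ordered by mean level with JNJ-64619178, with JNJ-64619178 libraries as red circles, DMSO libraries as grey squares and group means as lines. ANKRD1, CCN2 and F3 show clear gaps with JNJ-64619178 below, ASAP1 and ARHGEF17 show gaps with JNJ-64619178 above, and AMOTL2 and DOCK5 overlap.

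The remaining targets were not called. LATS2 and AMOTL2 belong to the pathway itself and are induced by YAP1 as negative feedback. AMOTL2 had 247, 243 and 241 CPM in the JNJ-64619178 libraries, against 249.5, 249.5 and 241 CPM in the DMSO libraries (log2 fold change -0.02, SE 0.04). LATS2 had 33.5, 31.6 and 29.8 CPM with JNJ-64619178, against 33.3, 34.0 and 34.8 CPM with DMSO (-0.10, SE 0.06). Both genes overlapped between groups. The carrier of insulin-like growth factors IGFBP3 (-0.09) and the stress gene GADD45B (-0.10) had all inhibitor libraries below all DMSO libraries without passing the test (edgeR adjusted p = 0.094 and 0.12). The exchange factor DOCK5 (-0.04) and the RNA-binding protein RBMS3 (0.15, at 5.11 CPM with JNJ-64619178 and 4.61 CPM with DMSO) overlapped between groups. The transcription factor FOXF2 had 0 counts in each JNJ-64619178 library and 1 count in all in the DMSO libraries. It was not tested, and a count of 0 allows up to 0.127 CPM in the shallowest library.

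Per kilobase of exon, levels of the tested members covered a wide range. The order with JNJ-64619178 was led by F3 (980.0 ± 33.5 CPM per kilobase), CCN1 (326 ± 30.3) and IGFBP3 (136 ± 1.96), with 1367 ± 24.8, 395 ± 12.7 and 145 ± 2.31 in DMSO libraries. NT5E (64.1 ± 1.35) and AXL (63.6 ± 1.33) followed and did not differ from each other beyond their spread. AMOTL2, ANKRD1, MYOF and GADD45B came next at 40.7 to 31.6 CPM per kilobase with JNJ-64619178, and ANKRD1 was the one of these whose mean in DMSO, 54.6 ± 3.70, lay above that of AMOTL2, 41.2 ± 0.84. In the core YAP1 was the most abundant, followed with JNJ-64619178 by STK4, TEAD3 and MOB1A, at 13.4 ± 0.75, 12.9 ± 0.47 and 12.4 ± 0.68. With DMSO these genes were in the opposite order, at 10.95 ± 0.17, 12.2 ± 0.61 and 13.2 ± 0.69. Differences between genes were not tested.

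Over the 34 tested members, 15 had all JNJ-64619178 libraries below all DMSO libraries and 5 had all above, beside 22.2% and 24.7% of all genes tested, or 47.0% in either direction. Of the 20 tested targets, 12 lay all below and 2 all above, and of the 14 core genes 3 lay all below and 3 all above. JNJ replicate 2 was the lowest inhibitor library in 17 of the 34 members and in 34.8% of all genes tested, and its part in the results was not tested beyond leaving it out. Without it 10 targets fell and 3 rose, the median of the targets was -0.16, and the core had 3 higher and 3 lower with a median of 0.01. The core median of -0.03 was thus near 0, and among the alternative fits it was positive only without JNJ replicate 2. It was -0.07 without JNJ replicate 1, -0.01 without JNJ replicate 3 and -0.09 with upper-quartile scaling.

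Other genes of the pathway were taken from 6 lists that do not include the members. The list of upstream kinases and scaffolds gave 11 higher and 3 lower of 26 tested, with a median log2 fold change of 0.08. Not all of its genes act on the LATS kinases from above. Among those that do not are STK38 and STK38L (0.23 each), both called higher and named here outside the 4 smallest p-values. MINK1 and MAP4K4, kinases that can phosphorylate LATS1 and LATS2 in parallel with STK3 and STK4, had the smallest p-values. MINK1 averaged 426 ± 0.33 CPM with JNJ-64619178 and 231 ± 8.11 CPM with DMSO (log2 fold change 0.88, SE 0.04). MAP4K4 averaged 408 ± 16.1 CPM with JNJ-64619178 and 243 ± 2.06 CPM with DMSO (0.74, SE 0.04). WWC2 (0.72) and WWC3 (0.42), relatives of the scaffold KIBRA, rose as well. All inhibitor libraries of these 4 genes lay above all DMSO libraries. KIBRA itself (the gene WWC1), named here outside the 4 smallest p-values, was not called (-0.05), and its groups overlapped. It averaged 238 CPM with JNJ-64619178 and 247 CPM with DMSO. With upper-quartile scaling this list had 7 higher and 4 lower, beside 2800 higher and 4099 lower of all 17371 genes tested. Without JNJ replicate 1 the list had 7 higher and 3 lower.

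The complex of phosphatase PP2A and striatin, STRIPAK, which counters STK3 and STK4, had 2 higher and 3 lower of 18 tested (median -0.03). Its scaffold gene STRIP2 (0.54) and its kinase gene STK25 (0.22) rose, and the phosphatase subunits PPP2R1A (-0.20) and PPP2CB (-0.17) fell. Polarity and junction proteins that feed into the pathway had 3 higher and 6 lower of 20 (median -0.07), among them the polarity genes LLGL2, which rose by 0.73, PRKCI (0.34) and PARD6B (-0.28), and the catenin gene CTNNA1 (-0.16). Proteins that hold, degrade or assist YAP1 and TEAD factors had 5 higher and 2 lower of 17 (median 0.03). In that list the 14-3-3 gene YWHAH (0.32) and the casein kinase gene CSNK1D (0.18) rose, and the 14-3-3 genes YWHAE (-0.18) and SFN (-0.22) fell. With upper-quartile scaling the split was 2 higher and 6 lower for STRIPAK, 2 and 9 for polarity genes, and 3 and 3 for the retention list, whose median was then -0.03. That scaling moved all genes tested towards lower values, with 2800 higher and 4099 lower of 17371. Without DMSO replicate 2, DMSO replicate 3 or JNJ replicate 3 the polarity list had 2 higher and 3 lower, and without JNJ replicate 2 it had 3 and 3. Without DMSO replicate 3 STRIPAK had 2 higher and 1 lower, and the retention list had 3 higher and 2 lower both there and without JNJ replicate 1.

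A further 41 tested genes reported as YAP1 or TAZ targets in other systems gave 7 higher and 13 lower, with a median of -0.09. GAS6, the ligand of AXL, averaged 310 ± 12.8 CPM with JNJ-64619178 and 492 ± 9.39 CPM with DMSO (log2 fold change -0.66, SE 0.04). DDAH1, which breaks down free asymmetric dimethylarginine, fell by 0.53, and the kinase gene SGK1 rose by 0.75. Genes of actin and its regulator SRF, which respond to the same cytoskeletal tension as YAP1, gave 4 higher and 12 lower of 20, with a median of -0.19. VCL, the adhesion protein vinculin, averaged 326 ± 8.11 CPM with JNJ-64619178 and 441 ± 5.41 CPM with DMSO (-0.44, SE 0.04). FHL2 (-0.40), a cofactor of SRF, and the actin gene ACTG1 (-0.27) fell, while MRTFB (0.47), a coactivator of SRF, rose. The other increases, named here outside the 4 smallest p-values, were TAGLN (0.38), the actin gene ACTA2 (0.56) and MRTFA (0.16). ACTA2 was low, at 2.63 CPM with JNJ-64619178 and 1.78 CPM with DMSO. The 4 increases in this list were 2 without DMSO replicate 2, DMSO replicate 3 or JNJ replicate 3, where 11 to 12 genes fell. These lists are described by their counts beside the 20.0% and 17.1% of all genes tested, and nothing was tested for a list as a whole.

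**Figure D4:**
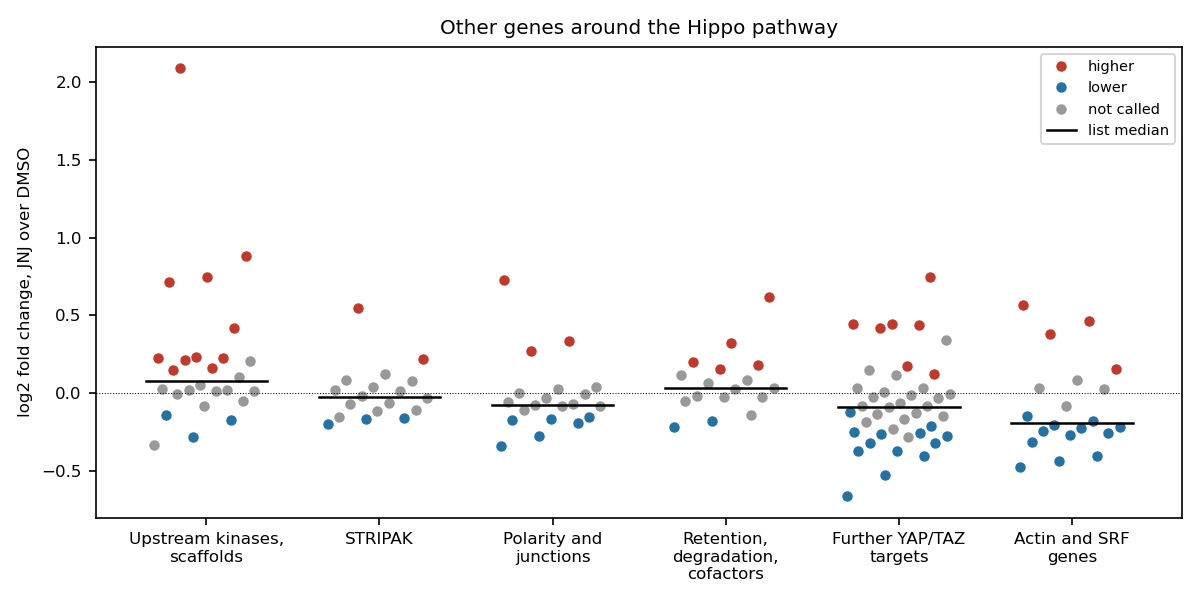
Log2 fold change, JNJ-64619178 over DMSO, of each tested gene in the 6 other lists, with red for called higher, blue for called lower, grey for not called and a black line at the list median. The medians run from -0.19 for actin and SRF genes to 0.08 for upstream kinases and scaffolds. The single point near 2.09 is FRMD1, which averaged 0.494 CPM with JNJ-64619178 and 0.113 CPM with DMSO and was picked out after its value was seen.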

How the data were processed

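The authors deposited 1 table of raw counts per gene covering all 6 libraries, not normalized. The submitters' processing notes list STAR 2.7.9a, featureCounts 1.6.0, FastQC 0.11.8, limma and edgeR without saying what each did. They name the mouse build GRCm39, but the identifiers in the table are human, which leaves the build used for counting uncertain. The sources used here do not give the strand setting or annotation release. Libraries were made with a stranded mRNA ligation kit, per the labels' protocols. Of 60649 rows, 44 repeated identifiers with a total of 0 were dropped. Symbols came from a reference table of gene names, and exonic lengths and positions from GENCODE release 29.

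Genes were filtered with filterByExpr (minimum count 10, minimum total 15), scaled by TMM and tested with edgeR 4.0.16 (glmQLFit, glmQLFTest, group only) in R 4.3.3. Standard errors are the log2 fold change over the square root of F. The script was tested on simulated data. All 35 members are named, with the 4 smallest p-values of each other list, except 1 gene whose result is not reported here. Promoters were named by a rule (the 3 largest decreases, CCN1, CCN2 and the 2 largest increases among targets), where a window was at hand, and NUAK2 was added outside it. Members and lists were chosen with earlier results of these data known. The alternatives were RLE and upper-quartile scaling, no filter, CPM above 1 in 3 libraries, limma-voom (limma 3.58.1), DESeq2 1.42.0, the replicate number as a block, and leaving out each library. No 2 replicates of a group were alike within sampling noise (chi-square over degrees of freedom 2.68 to 8.93). Same-numbered libraries did not deviate together (correlations -0.02 to 0.002 for the 3 pairs).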

Additional observations from a re-analysis of the deposited data

How the results depend on the processing

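Over 13 alternatives, 17 of the 20 called members kept their call and direction, 12 lower and 5 higher. The other 3 were SAV1, TGFB2 and NUAK2. With upper-quartile scaling the median of all genes was -0.06 and 40.6% of calls were higher, beside 53.9% with TMM. The targets then had 3 higher and 14 lower, the core 3 higher and 4 lower, and MOB1A, LATS2, IGFBP3 and GADD45B were called lower, while DESeq2 called IGFBP3 as well. Under the same scaling 8 genes of the STRIPAK list were called, against 5 with TMM. Leaving out 1 library gave 3 to 7 calls in the STRIPAK list (3 without DMSO replicate 3) and 5 to 12 in the polarity list, with 5 without DMSO replicate 2 or 3 or JNJ replicate 3, against 9. Without 1 library the uncalled log2 fold changes of AMOTL1 (-0.0767 to 0.0277) and DOCK5 (-0.0876 to 0.0203) were positive only without JNJ replicate 2. With the replicate number as a block 6132 genes were called, against 6448, with 3 higher and 2 lower core genes and 3 higher and 11 lower targets. Low counts limit TEAD2 and AMOT.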

Other observations

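JNJ replicate 2 differed from the other inhibitor libraries by transcript length. Its median log2 ratio to their mean was 0.04 in each of the 2 shortest of 4 length groups of tested genes, 0.002 in the next (median length 5324.5 bases) and -0.05 in the longest (9091 bases). The 34 tested members had a median exonic length of 6140 bases, against 4192 bases over all tested genes with a length in GENCODE. The median of the 20 tested targets, 5152.5 bases, lay nearest that of the length group at 0.002. The median of the 14 core genes, 7791.5 bases, lay nearest that of the longest group, at -0.05. Ratios by length were computed for JNJ replicate 2 alone. Any link of length to the core or target results was not tested. Members such as MYOF, PTPN14, TEAD1, ASAP1 and DOCK5, of 8280 to 18756 bases, had their lowest inhibitor value in JNJ replicate 2. Others in that length range did not. RBMS3 (18339 bases) was lowest in JNJ replicate 1 and AMOT (8502 bases) in JNJ replicate 3.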
